A study of Arabidopsis thaliana with 12 samples.

Results

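The comparison described here sets h3.3kd;h2a.z seedlings, which combine a knockdown of histone H3.3 with a mutation of histone H2A.Z and are called the double mutant, against the wild type Col. It rests on 6 of the 12 libraries of the series, 3 per genotype, chosen by their genotype labels. The material was whole Arabidopsis thaliana seedlings, 7 days old, kept under short days at 21 °C, and the double mutant is labelled as h3.3kd-1;h2a.z. The other 6 libraries are the single mutants h3.3kd (3 libraries, labelled h3.3kd-1) and h2a.z (3 libraries), which are used where the double mutant is set beside them. Which alleles or constructs each line carries, and how many independent lines were sampled, is not stated by the sources at hand, so the knockdown is represented by the labelled line h3.3kd-1.

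H3.3 is the replacement form of histone H3, deposited outside DNA replication and abundant over transcribed genes. H2A.Z replaces histone H2A in nucleosomes near the starts of genes, where it is placed by the SWR1 complex, and is known in Arabidopsis for repression of stress and temperature responsive genes and for full expression of the flowering repressor FLC. The series addresses the roles of both variants in growth at warm temperature, and these libraries show the state without warming.

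Transcript levels are given as TPM, a length-corrected share of each library in which all genes sum to 1000000. Of 23893 genes in the table, 18851 had a mean of at least 1 TPM over the 12 libraries and were tested with limma on log2(TPM + 1). A gene is described as changed, or called, at a Benjamini-Hochberg adjusted p below 0.05, and log2 fold changes carry their standard error (SE). In units of 1000000 nuclear reads, approximate depth was 16.9 to 20.6 in Col, 16.5 to 22.4 in the double mutant, 21.3 to 25.4 in h3.3kd and 18.1 to 18.9 in h2a.z except its replicate 1, at 4.35. Libraries of Col correlated with each other across genes at 0.993 to 0.995, those of the double mutant at 0.989 to 0.992, and Col with the double mutant at 0.948 to 0.954 (Pearson r, genes are not independent replicates). Summed leaf and guard cell markers were 36590 to 39860 TPM in Col and 45470 to 52300 TPM in the double mutant, summed root markers 227 to 268 and 296 to 362 TPM, and summed flower and pollen markers 0.949 to 1.28 and 1.39 to 1.94 TPM, with 1 of 12 such genes in the table at 0 in all 6 libraries; the part of these differences in the results was not tested. The leaf and guard cell sum is carried by a few abundant photosynthesis genes and runs opposite to most members of that list, of which 10 of 16 fell. Replicate 2 of the double mutant stands apart in plastid transcripts, which made up 0.42% of its TPM against 0.186% to 0.227% in the other double mutant libraries. Plastid results are given with and without it, and so are some list counts that shifted when it was left out, though not all. In whole seedlings, fewer cells of a type and less RNA per cell cannot be told apart.

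Differences between the genotypes were widespread and mostly small. Of the 18851 genes tested, 9611 were called (51.0%), 3826 of them higher (20.3%) and 5785 lower (30.7%) in the double mutant. The counts of the gene lists below are to be set beside these shares. Changes under 1.5-fold made up 6157 calls, or 64.1%. At least 2-fold, 376 genes rose (1.99%) and 826 fell (4.38%), and at least 8-fold, 11 rose and 31 fell. The 3 Col libraries did not overlap the 3 double mutant libraries in 10538 genes (55.9%). The direction of the small changes depends on scaling. The median gene stood at -0.07 on the log2 scale, and with TPM rescaled by median ratios it moved to -0.00, with 5042 higher and 4917 lower calls, so that 50.6% of calls were higher in place of 39.8%. Without replicate 2 of the double mutant, 8318 of the calls (86.5%) were made again in the same direction.

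**Figure D1:**
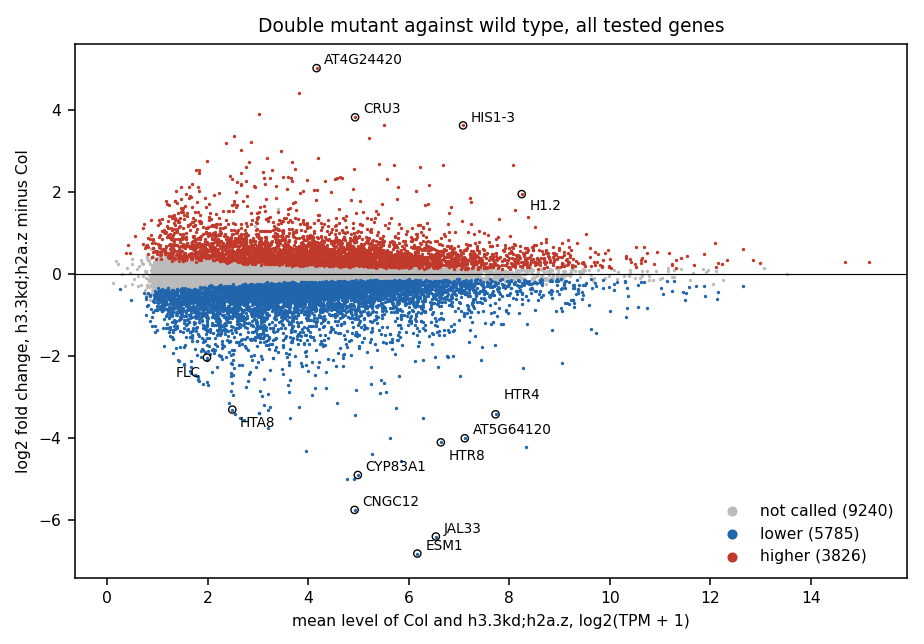
Log2 fold change of the double mutant against Col (vertical axis) against the mean level of both groups in log2(TPM + 1) (horizontal axis) for the 18851 tested genes, coloured by call. The 31 falls of at least 8-fold outnumber the 11 rises of that size, and CNGC12, JAL33 and ESM1 lie lowest.

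The histone transcripts named in the genotype were low in the double mutant, with an unequal remainder. HTR4 (AT4G40030), which encodes H3.3, was at 386, 382 and 389 TPM in the 3 Col libraries and at 31.1, 41.2 and 33.9 TPM in the double mutant. HTR5 (AT4G40040), encoding the same protein variant, was at 237, 261 and 251 TPM in Col and 168, 203 and 188 TPM in the double mutant. HTA9 (AT1G52740), an H2A.Z gene, was at 159, 154 and 171 TPM in Col and 55.6, 68.5 and 57.3 TPM in the double mutant. The groups did not overlap for any of these genes, and HTR5 and HTA9 supplied most of the remaining transcript of their kind. The summed level of the 3 H3.3 genes was 808 to 836 TPM in Col and 207 to 257 TPM in the double mutant. For the 4 H2A.Z genes the sums were 192.5 to 209.9 and 59.9 to 72.8 TPM, with 33.1 to 42.5 TPM in h2a.z. HTA4 (AT4G13570), a minor member of that group, fell by 0.91 (SE 0.12, adjusted p = 2.7e-05), with 5.62, 5.66 and 6.03 TPM in Col and 2.54, 2.81 and 2.46 TPM in the double mutant.

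Linker histone genes rose together, and several core histone genes rose with them. Linker histone H1 binds nucleosomes where DNA enters and leaves, and all 3 H1 genes of the list were called higher. HIS1-3 (AT2G18050), a drought-inducible H1 variant, was at 21.2, 19.5 and 17.3 TPM in Col and 239, 288 and 221 TPM in the double mutant (log2 fold change 3.62, SE 0.12, adjusted p = 8.2e-12). H1.2 (AT2G30620) was at 119, 132 and 122 TPM in Col and at 477, 508 and 458 TPM in the double mutant, and H1.1 (AT1G06760) at 135, 149 and 137 and at 417, 425 and 399.6 TPM. These libraries lie far apart without overlap in each of the 3 genes. Beside the single mutants, the double mutant was not distinguished from h3.3kd for H1.2 (difference 0.04, adjusted p = 0.68, limma) and above it for HIS1-3 (0.40, adjusted p = 0.015) and H1.1 (0.28, adjusted p = 0.0035), while h2a.z stood at 105.7 ± 6.03 TPM for H1.2 (SD, n = 3).

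Of 5 H2B genes 4 rose, led by HTB9 (0.71, SE 0.07) and HTB11 (0.55, SE 0.09), and none fell, with a median of 0.38 against -0.07 over all genes tested. The call of HTB1 (0.21) was lost without Col replicate 2 or 3 or double mutant replicate 1, at adjusted p = 0.074, 0.055 and 0.11. Of 9 other H2A genes 5 rose, led by HTA7 (0.80, SE 0.09) and HTA3 (0.62, SE 0.08), which encodes the DNA damage variant H2A.X, and 2 fell. Of these falls 1 was called without Col replicate 1 and none without double mutant replicate 3. Among 5 genes for H3.1, the H3 form deposited at replication, HTR1 (0.71, SE 0.07) and HTR2 (0.56, SE 0.09) rose. HTR3 (AT3G27360), which encodes H3.1 too, was at 5.72, 5.47 and 5.15 TPM in Col, 9.19, 11.1 and 11.3 TPM in h3.3kd, 0, 0.215 and 0.113 TPM in h2a.z and 0.509, 0.53 and 0.481 TPM in the double mutant. It thus fell by 2.1 (SE 0.12, adjusted p = 5.7e-09) against Col, and its high level in h3.3kd was absent from the double mutant. AT5G59690, annotated as a histone, was among the most abundant genes that rose at least 2-fold, from 185, 171 and 188 to 405, 567 and 458 TPM. Histone copies are similar in sequence and can share reads, so the separate values are uncertain.

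Genes for histone exchange and Polycomb proteins changed by less than 2-fold where they were called, and the DNA demethylase genes DML2 and DML3 by more. Of 16 genes for H2A.Z exchange and H3 chaperones 3 rose, or 5 with rescaled TPM, and 2 fell. Over all genes tested 20.3% rose and 30.7% fell. NRP1 and NRP2, which encode chaperones of H2A and H2B, rose by 0.51 (SE 0.08) and 0.45 (SE 0.08), and FAS1, a subunit of the CAF-1 complex that assembles H3.1, fell by 0.83 (SE 0.15). MBD9, at -0.26, was no longer called after rescaling (adjusted p = 0.056), without Col replicate 1 (0.14) or without double mutant replicate 3 (0.090), which each left FAS1 as the 1 lower call of that list. Among 12 DNA methylation genes the largest changes were in these demethylase genes. DML2 was at 6.48, 5.06 and 5.19 TPM in Col and 1.7, 1.75 and 1.18 TPM in the double mutant, a fall of 1.37 (SE 0.13), while DML3 rose by 1.24 (SE 0.16) from 3.8, 2.4 and 2.89 TPM to 7.59, 11 and 7.1 TPM. ROS1 rose by 0.56 (SE 0.11). In all, 2 genes of this list rose and 4 fell, a share of calls near the 51.0% of all genes, and the number that fell was 1 without double mutant replicate 2 and 2 without Col replicate 2 or double mutant replicate 3. Of 9 genes on the Polycomb list 1 rose and 2 fell, both below the shares over all genes tested (20.3% and 30.7%). The rise was VRN1, by 0.48 (SE 0.06), which is annotated as an AP2/B3-like transcription factor gene and not as a Polycomb protein. Without VRN1 no gene of the list rose. The falls were EMF2 and VRN2, by 0.57 (SE 0.09) and 0.36 (SE 0.12). The VRN2 call was lost without Col replicate 1 or double mutant replicate 3 (adjusted p = 0.064 and 0.079).

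**Figure D2:**
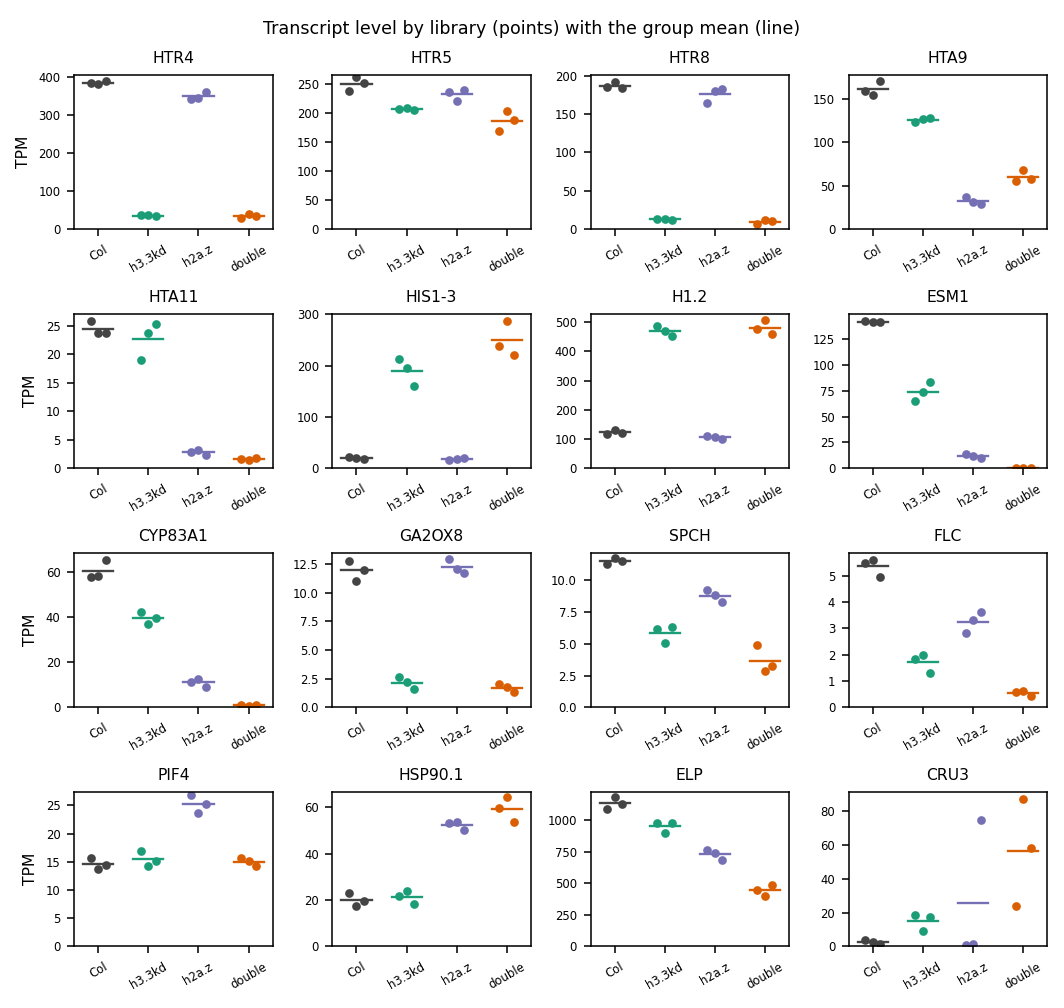
TPM of 16 genes in each library (points) with the group mean (lines) in Col, h3.3kd, h2a.z and the double mutant, each panel with its own linear axis from 0. Linker histone genes HIS1-3 and H1.2 are high in both lines with the H3.3 knockdown, ESM1 and CYP83A1 are lowest in the double mutant, and CRU3 is high in 1 of 3 h2a.z libraries.

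The 15 largest falls, among called genes of at least 5 TPM whose libraries did not overlap, took in defence and secondary metabolism genes. ESM1 (AT3G14210), which directs glucosinolate breakdown toward isothiocyanates, was at 142, 142 and 141 TPM in Col and 0.312, 0.18 and 0.327 TPM in the double mutant. It fell by 6.81 (SE 0.11, adjusted p = 7.5e-15), the largest change of all genes tested. The single mutants lay between, with 65.0, 74.0 and 83.4 TPM in h3.3kd and 14.1, 11.7 and 9.99 TPM in h2a.z. Levels in the double mutant were below both (adjusted p = 3.2e-14 and 1.2e-11, limma). CYP83A1 (AT4G13770), which acts in aliphatic glucosinolate synthesis, showed the same order of genotypes: 57.6, 58.1 and 65.3 TPM in Col, 42.2, 36.7 and 39.7 in h3.3kd, 11.5, 12.7 and 9.09 in h2a.z and 1.23, 0.809 and 1.15 in the double mutant.

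Other members of the 15 were nearer to 1 of the single mutants. JAL33 (AT3G16450), a jacalin-related lectin gene, was at 179, 187 and 182 TPM in Col and at 0.945, 1.4 and 1.23 TPM in the double mutant, with 1.92, 1.85 and 2.87 TPM in h2a.z. CNGC12 (AT2G46450), a cyclic nucleotide-gated channel gene linked to immunity, was at 64.6, 57.4 and 53.4 TPM in Col, under 0.5 TPM in each h2a.z library and at 0.021, 0.201 and 0.0993 TPM in the double mutant. CYP71B26, a cytochrome P450 gene, was not distinguished from h2a.z (difference -0.08, adjusted p = 0.70). In h3.3kd, CNGC12 was at 55.2, 54.4 and 58.8 TPM, all inside the Col range, and JAL33 was lower than in Col, at 105.5, 103.5 and 92.5 TPM. Another set was low in h3.3kd. AT5G64120, a class III peroxidase gene, was at 267, 256 and 256 TPM in Col, 29.6, 27.0 and 25.8 TPM in h3.3kd, 246, 275 and 304 TPM in h2a.z and 13.6, 13.1 and 19.8 TPM in the double mutant. AT3G44970, a cytochrome P450 gene, was at 124, 109 and 93.7 TPM in Col and 3.67, 3.97 and 3.35 TPM in the double mutant, with 6.25, 5.9 and 4.48 TPM in h3.3kd. AT3G05727, annotated with an S locus-related glycoprotein binding domain, was the most abundant of the 15, at 667, 617 and 535 TPM in Col and 51.6, 34.9 and 17.56 TPM in the double mutant. By the limma contrasts 12 of the 15 were called lower in h3.3kd against Col, 12 in h2a.z against Col, and 12 were below both single mutants in the double mutant. The 15 were picked on the same Col and double mutant libraries, which favours such counts. Of all 18851 genes tested, 2604 were lower in the double mutant than in h3.3kd and 6467 lower than in h2a.z. Shares over all genes are not given here for the single mutants against Col or for genes below both. The counts of 12 thus cannot be read as particular to the 15. The remaining members of the 15 were AT3G23510, GSTU8, AT1G75945, HTR8, PAP1, AT2G24190 and AT4G36515, with log2 fold changes of -3.56 to -5.0.

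The 15 largest rises included genes nearly silent in Col, seed storage genes and HIS1-3. AT4G24420, annotated as an RNA-binding protein gene, was at 0, 0.253 and 0 TPM in Col and 32.3, 36.2 and 33.0 TPM in the double mutant (log2 fold change 5.01, SE 0.13, adjusted p = 8.8e-13). ABCA9, an ABC transporter gene, was at 0, 0.0181 and 0 TPM in Col and 10.2, 10.6 and 7.71 TPM in the double mutant. AT5G66970 was listed at 0 in the 3 Col libraries and at 12.5, 18.5 and 11.8 TPM in the double mutant. These 3 genes were also on in h2a.z, at 28.9, 24.3 and 27.7 TPM for AT4G24420, and near 0 in h3.3kd. RR18, a type-B response regulator gene of cytokinin signalling, differed from both single mutants: it was at 0.0387, 0 and 0 TPM in Col, 1.22, 1.66 and 1.64 in h3.3kd, 1.49, 1.12 and 0.95 in h2a.z and 9.19, 6.86 and 8.94 in the double mutant. The double mutant exceeded h3.3kd by 1.89 (adjusted p = 2.5e-07) and h2a.z by 2.09 (adjusted p = 4.2e-08) in RR18. AT3G28500, annotated as an acidic protein of the large ribosomal subunit, was likewise above both, at 12.8, 8.52 and 9.58 TPM against 0.313, 0.685 and 0.192 TPM in Col. Of the 15 rises 11 were called higher in h2a.z against Col, 4 in h3.3kd against Col, and 4 were above both single mutants in the double mutant, namely RR18, AT3G28500, HIS1-3 and SESA2. The rises too were picked on the same Col and double mutant libraries. Of all 18851 genes tested, 3932 were higher in the double mutant than in h3.3kd and 2673 higher than in h2a.z. The matching shares for the single mutants against Col, or above both, are not given, so these counts cannot be read as particular to the 15. AT3G25719, AT3G21080, AT2G39240 and AT3G28330, which rose by 2.75 to 4.42 against Col, were not above h2a.z. The last 3 of them were below it, by -0.75, -0.33 and -0.90 (adjusted p = 0.00088, 0.011 and 2.5e-05, limma).

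**Figure D3:**
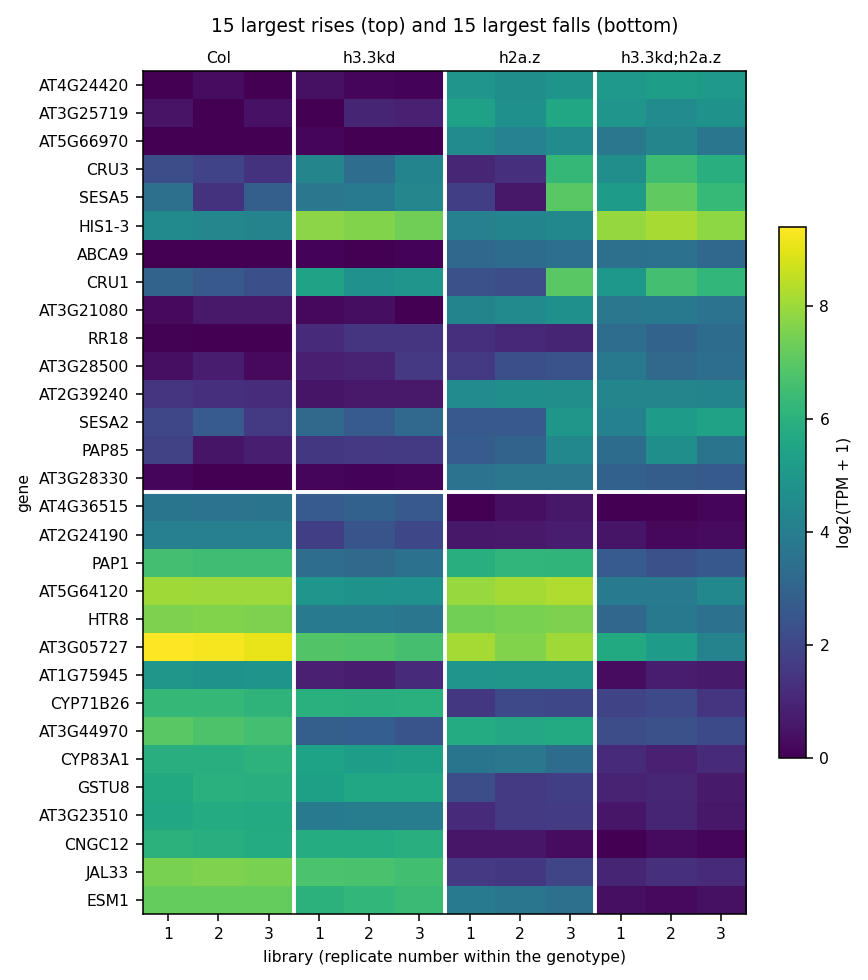
Level in log2(TPM + 1) (colour) of the 15 largest rises and 15 largest falls (rows) in the 12 libraries (columns, grouped by genotype). Most rises are also seen in h2a.z, seed storage genes vary among libraries of a genotype, and falls such as ESM1 deepen from h3.3kd to h2a.z to the double mutant.

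Among abundant transcripts, ELP (AT1G12090), an extensin-like gene, fell from 1089, 1184 and 1126 TPM to 450, 401 and 483 TPM (-1.35, SE 0.07). MT3, a metallothionein gene, fell from 1279, 1194 and 1196 TPM to 449, 575 and 347 TPM (-1.45, SE 0.13), and AT4G23670, of the polyketide cyclase family, from 906, 847 and 845 TPM to 171, 189 and 217 TPM (-2.17, SE 0.07). All of ELP, MT3 and AT4G23670 were lower in the double mutant than in either single mutant. LHCB4.2, a photosystem II antenna gene, fell by 1.04 (SE 0.07) and was not distinguished from h2a.z (difference 0.04, adjusted p = 0.69). In the other direction, AT2G47450, a component of the chloroplast signal recognition particle, rose from 216, 220.2 and 235 TPM to 455, 514 and 530.0 TPM (1.15, SE 0.06), and AT5G11420, encoding a putative transmembrane protein, from 126, 126 and 124 TPM to 296, 313 and 349.5 TPM (1.34, SE 0.06).

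Aliphatic glucosinolate synthesis, which makes methionine-derived defence compounds of the Brassicaceae, was low at nearly every step. Of 20 genes tested 18 fell, 13 of them at least 2-fold, and 1 rose, with a median of -1.37. Of 8 genes of methionine chain elongation 7 fell, and of 10 genes for the core structure and side chain 9 fell. MYB28 (AT5G61420), a transcription factor that activates the pathway, was at 79.8, 69.0 and 66.5 TPM in Col and at 29.7, 24.9 and 21.7 TPM in the double mutant, with 39.3, 39.3 and 42.8 TPM in h3.3kd and 74.4, 78.8 and 72.7 TPM in h2a.z. MYB29, its partner, was at 18, 15.3 and 15 TPM in Col and 1.02, 0.5 and 0.993 TPM in the double mutant. The exception was MAM3 (AT5G23020), a chain elongation gene beside MAM1, at 1.78, 2.17 and 2.17 TPM in Col and 5.74, 2.81 and 5.23 TPM in the double mutant (0.84, SE 0.18, adjusted p = 0.0011). MAM1 went the other way, from 8.38, 8.38 and 10.3 TPM to 0.28, 0.374 and 0.255 TPM. MAM1 and MAM3 are similar copies that could share reads.

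Breakdown genes fell as well: 7 of 11 were lower and 2 higher, against 30.7% and 20.3% of all genes tested. TGG1 and TGG2 encode myrosinases, the enzymes that cleave glucosinolates on wounding. TGG1 was at 679, 643 and 655 TPM in Col and 298, 226 and 246 TPM in the double mutant. TGG2 was at 40.3, 40.9 and 42.7 TPM in Col and 6.1, 2.76 and 3.07 TPM in the double mutant, and in both genes the double mutant was lower than each single mutant. Of 12 indolic glucosinolate genes, tryptophan-derived, 6 fell and 2 rose (1 without Col replicate 2 or 3 or double mutant replicate 1). The falls are above and the rises near the shares over all genes tested (30.7% and 20.3%). The median was -0.32, and MYB34, an activator of that branch, fell by 1.16 (SE 0.07). In the sulfur list, 6 of 14 genes fell and 2 rose, against 30.7% and 20.3% of all genes tested. APK1 and APK2, kinases that supply activated sulfate for glucosinolates, fell by 0.92 (SE 0.10) and 1.14 (SE 0.10).

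**Figure D4:**
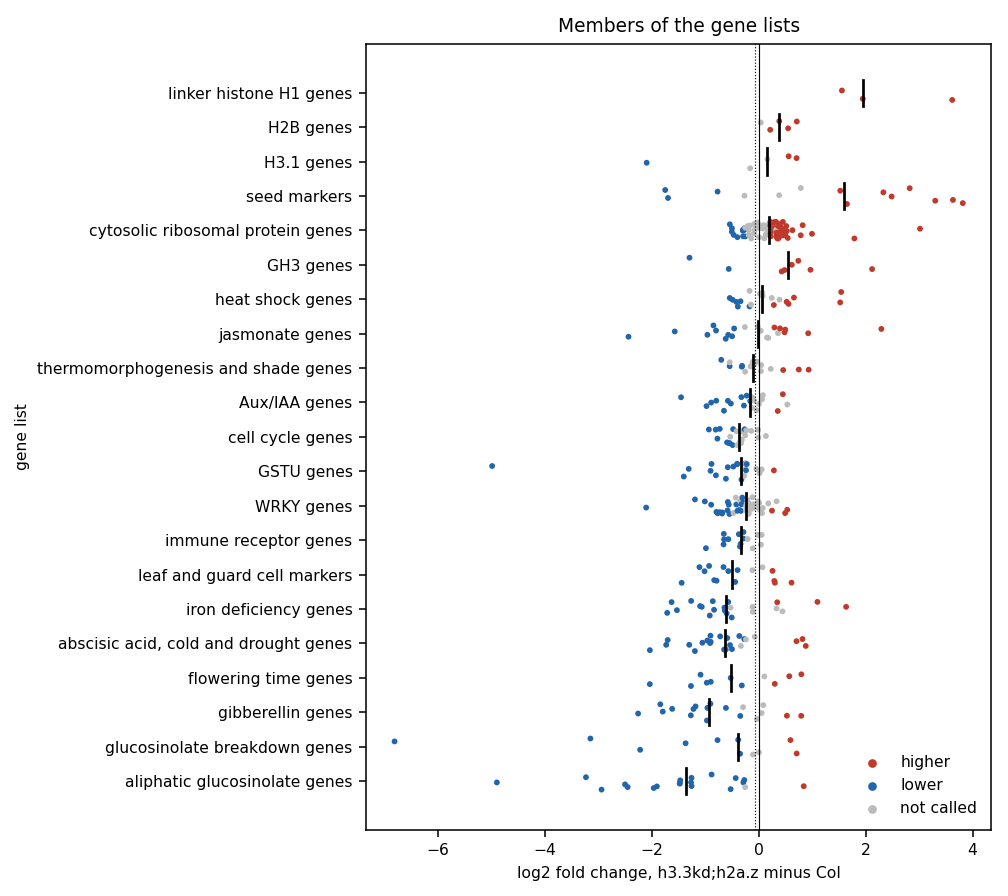
Log2 fold change of the double mutant against Col for each tested member of 21 gene lists (points, coloured by call), with the list median (black bar), zero (solid line) and the median of all genes (dotted line). The aliphatic glucosinolate list has its median at -1.37, the gibberellin list at -0.93 and the linker histone list at 1.94.

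Gibberellin genes were a second group with a low median. Gibberellins promote elongation, DELLA proteins repress growth until GID1 receptors bind the hormone, and oxidases make or inactivate it. Of 18 genes tested 12 fell, 7 of them at least 2-fold, 2 rose, and the median was -0.93. The 7 oxidase genes of the list, for synthesis and for inactivation alike, all fell. GA3OX1 (AT1G15550), the last step of synthesis, was at 6.76, 5.91 and 4.95 TPM in Col and 1.3, 0.452 and 1.08 TPM in the double mutant (-1.84, SE 0.18, adjusted p = 9.8e-07). GA2OX8 (AT4G21200), an inactivating enzyme, was at 12.8, 11.1 and 12 TPM in Col and 2.03, 1.82 and 1.32 TPM in the double mutant. Neither gene overlapped between the groups. GA2OX8 was at 12.9, 12.1 and 11.7 TPM in h2a.z and 2.62, 2.22 and 1.64 TPM in h3.3kd. Against h3.3kd, where 34.7% of all genes were called, 1 of the 7 oxidase genes was called in the double mutant. Against h2a.z, with 48.5% of all genes called, 7 of 7 were.

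Downstream of the hormone, GID1B, a receptor gene, fell by 0.96 (SE 0.08), and the gibberellin-responsive genes GASA1 and GASA6 fell by 1.22 (SE 0.13) and 1.80 (SE 0.24). GASA1 was abundant, at 469, 446 and 444 TPM in Col and 164, 237 and 186 TPM in the double mutant. The DELLA genes did not follow: of 5, RGL2 rose by 0.79 (SE 0.08), GAI rose by 0.53 (SE 0.06) and the others were not called. GID1B, GASA1, GAI and RGL2 were named after their values were seen, as were MYB28 and MAM3 above.

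Auxin and brassinosteroid genes moved in both directions. Of 21 Aux/IAA genes, early auxin targets that repress auxin response, 11 fell and 2 rose, against 30.7% and 20.3% of all genes tested. With rescaled TPM 9 fell. The change was -1.45 (SE 0.13) for IAA1, -0.98 (SE 0.08) for IAA3 and -0.89 (SE 0.06) for IAA17. IAA1 was at 21.5, 17.9 and 19.2 TPM in Col and 6.94, 5.46 and 7.14 TPM in the double mutant. Of 8 GH3 genes, which encode enzymes that conjugate amino acids to auxin and related acids, 6 rose and 2 fell. Of all genes tested 20.3% rose and 30.7% fell. GH3.9 went from 1.55, 2.17 and 1.88 TPM to 11.7, 10.5 and 12 TPM, a rise of 2.12 (SE 0.11), and was above both single mutants, whereas GH3.6 fell by 1.30 (SE 0.13). Of 48 SAUR genes, small auxin-induced growth genes, 16 fell and 6 rose, the falls near and the rises below the shares over all genes tested (30.7% and 20.3%), with SAUR9 at -2.01 (SE 0.15) and SAUR32, the abundant member, at -1.32 (SE 0.07), from 109, 98.7 and 97.2 TPM to 39.9, 42.6 and 37.9 TPM. Of 15 brassinosteroid genes 7 fell and 5 rose, or 3 without Col replicate 3, against 30.7% lower and 20.3% higher of all genes tested. DWF4 and ROT3, which encode synthesis enzymes, fell by 1.0 (SE 0.13) and 1.4 (SE 0.08), as did BEE1, an early response gene (-1.42, SE 0.12), and BAS1, an inactivating enzyme gene (-1.20, SE 0.14).

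Among cytokinin genes 5 of 13 fell and 2 rose, near the shares over all genes tested (30.7% and 20.3%), with IPT3, a synthesis gene, at -0.95 (SE 0.11). With rescaled TPM, or without Col replicate 1, 4 rose. Of 13 ethylene genes 8 fell, or 6 with rescaled TPM, and none rose, against 30.7% and 20.3% of all genes tested. The falls were at most 0.82 (EBF2, SE 0.08). The jasmonate list, for a wound and defence hormone, had 9 lower and 6 higher of 21, against 30.7% and 20.3% of all genes tested. AOC2, a synthesis gene, was at 18.6, 17.81 and 17.9 TPM in Col and 2.78, 2.47 and 2.36 TPM in the double mutant, with 1.64, 2.17 and 2.07 TPM in h2a.z. CORI3, a coronatine-induced gene, was at 4.7, 4.16 and 4.18 TPM in Col and 28.5, 24.8 and 22.5 TPM in the double mutant, with 45.2, 48.4 and 47.2 TPM in h2a.z. For both genes the double mutant was nearer to h2a.z than to h3.3kd.

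Cell wall loosening genes were mixed. Of 24 expansin genes 8 rose and 6 fell, against 20.3% and 30.7% of all genes tested, and 5 rose without Col replicate 2. EXPA20 was at 1.06 (SE 0.10), EXLA2 at 0.90 (SE 0.14) and EXPA16 at -1.0 (SE 0.19). Of 28 XTH genes, which encode xyloglucan-modifying enzymes, 9 fell and 6 rose, near the 30.7% and 20.3% of all genes tested. XTH24 was at 307, 317 and 338 TPM in Col and 128, 149 and 132 TPM in the double mutant, not distinguished from h3.3kd (difference 0.00, adjusted p = 0.98). In the list of warmth and shade elongation genes 4 of 18 fell and 3 rose, both below the shares over all genes tested. ATHB2, a shade-induced transcription factor gene, rose from 6.65, 6.4 and 8.2 TPM to 14.47, 16.5 and 12.4 TPM (0.93, SE 0.15), and XTR7, a wall gene, rose by 0.75 (SE 0.15). EXPA8, an expansin gene, and PHYB, the main red light receptor and a temperature sensor, fell by 0.70 (SE 0.14) and 0.54 (SE 0.06). PIF4, the central activator of warmth-induced elongation, was at 15.6, 13.7 and 14.47 TPM in Col, 15.7, 15.2 and 14.3 TPM in the double mutant, whereas h2a.z had 26.8, 23.7 and 25.2 TPM. Its libraries overlap between Col and the double mutant, while the double mutant was below h2a.z by 0.71 (SE 0.08, adjusted p = 6.9e-06). YUC8, an auxin synthesis gene, was at -0.26 (adjusted p = 0.081) but passed the threshold once double mutant replicate 2 was left out (-0.37, adjusted p = 0.019). For IAA19, an auxin target of that response, the change was -0.09 (SE 0.28, adjusted p = 0.81).

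Heat shock genes, which encode chaperones and their regulators, had 6 higher and 6 lower of 19, against 20.3% and 30.7% of all genes tested. With rescaled TPM 8 were higher and 3 lower, and 3 were lower without Col replicate 1 or without double mutant replicate 3. Without double mutant replicate 2, 4 were higher and 5 lower. HSP90.1 went from 23.2, 17.5 and 19.4 TPM to 59.7, 64.3 and 53.7 TPM, which was not distinguished from h2a.z (0.17, adjusted p = 0.19). HSP17.6II, a small heat shock gene, was at 6.54, 4.62 and 3.21 TPM in Col, 7.7, 9.61 and 6.59 TPM in the double mutant, whereas h2a.z had 35.2, 33.7 and 27.4 TPM, so that the double mutant stood 1.89 below h2a.z on the log2 scale (adjusted p = 7.7e-07). HSP70 was at 190.2, 163 and 167 TPM in Col and 117, 168 and 116 TPM in the double mutant. Its groups overlap, and its call (-0.39, adjusted p = 0.039) was lost with rescaled TPM (adjusted p = 0.099), with no filter on low values (0.069) and on leaving out any single Col library or double mutant replicate 1 or 3 (adjusted p = 0.052 to 0.15).

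Genes of abscisic acid, cold and drought were low: 18 of 24 fell and 3 rose, with a median of -0.63. Abscisic acid signals water shortage, and the list holds its targets and regulators. RAB18, a dehydrin gene, was at 138, 128 and 134 TPM in Col and 32.1, 48.7 and 41.7 TPM in the double mutant, with 29.7, 30.4 and 55.2 TPM in h2a.z and 124, 109 and 86.6 TPM in h3.3kd. COR6.6, a cold-regulated gene, was at 299, 318 and 354 TPM in Col and 89.0, 109 and 92.5 TPM in the double mutant, below both single mutants (adjusted p = 5.3e-06 and 5.3e-08). KIN1, its neighbour and close relative, was at 37.1, 40.3 and 44.4 TPM in Col and 11, 9.09 and 7.58 TPM in the double mutant. The groups are separate in each of these genes. HAI2, HAI3 and COR15A were picked after their values were seen. The rises were COR15A (0.82, SE 0.18) and the phosphatase genes HAI2 and HAI3, of which HAI3 rose by 0.88 (SE 0.16); of 6 phosphatase genes that restrain the pathway, 4 fell and 2 rose. HAI1 was among those that fell (-1.30, SE 0.19).

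Iron deficiency genes were low too: 14 of 22 fell and 3 rose, with a median of -0.62. Without double mutant replicate 2, 11 fell. IMA2 and IMA3 encode peptides that signal iron shortage, and IMA3 fell from 6.79, 7.11 and 7.74 TPM to 1.9, 1.3 and 1.8 TPM (-1.63, SE 0.14). PYE, a transcription factor gene of the pathway, fell from 33.5, 35.9 and 42.9 TPM to 17.0, 17.3 and 17.5 TPM, and BTS, whose product targets iron regulators for breakdown, from 81.4, 81.7 and 86.4 TPM to 30.6, 24.3 and 30 TPM. The rises were FER1 and FER4, which encode the iron storage protein ferritin, and NAS2, while FER3, another ferritin gene, fell by 0.92. FER4 rose from 21.0, 23.0 and 21.9 TPM to 49.2, 47.5 and 47.8 TPM (1.1, SE 0.08). NAS2, which makes the metal chelator nicotianamine, was at 1.37, 4.57 and 3.23 TPM in Col and 14.53, 6.51 and 13.3 TPM in the double mutant. FER1, FER3, FER4 and PYE were chosen after their values were seen.

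Of 13 phosphate starvation genes 6 rose and 2 fell, the reverse balance, with a median of 0.22. RNS1, a ribonuclease gene, rose by 1.04 (SE 0.16), SQD2, for a sulfolipid that replaces phospholipids, by 0.87 (SE 0.11) and PAP17, an acid phosphatase gene, from 149.5, 149 and 125 TPM to 239.8, 273 and 217 TPM (0.78, SE 0.13). PHT1;4, a phosphate transporter gene, fell by 1.29 (SE 0.11). Of 13 nitrogen genes 5 fell and 3 rose, with NIA2, a nitrate reductase gene, at -0.55 (SE 0.05) and GLN1;1, a glutamine synthetase gene, at 0.77 (SE 0.10), counts near the 30.7% lower and 20.3% higher of all genes tested.

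Several late anthocyanin genes fell, while 7 early enzyme genes, grouped with their values known, rose or were not called. PAP1, PAP2, TT8, DFR, LDOX and TT19, late genes and activators picked with their values known, fell by 1.37 to 3.99. EGL3, another activator of the late genes, went the other way, from 9.74, 9.74 and 9.82 TPM to 16.9, 14.9 and 14.2 TPM (0.60, SE 0.08), its relative GL3 was at -0.10 (adjusted p = 0.65), and the late enzyme gene UF3GT was at 0.17 (adjusted p = 0.28). PAP1 (AT1G56650), a MYB activator, was at 95.7, 90.3 and 89.4 TPM in Col, 9.24, 8.43 and 10.2 TPM in h3.3kd, 58.6, 72.2 and 68.7 TPM in h2a.z and 5.56, 4.02 and 5.01 TPM in the double mutant. DFR, the first committed enzyme, was at 15.8, 19.0 and 14.1 TPM in Col and 7.12, 4.02 and 3.92 TPM in the double mutant. Of these 7 early phenylpropanoid and flavonoid enzyme genes 5 rose and none fell. The 7 do not hold every flavonoid enzyme gene of the list, in which EGL3 was the only further rise. CHS, which makes the flavonoid skeleton, was at 1356, 1456 and 1377 TPM in Col and 1855, 2112 and 2021 TPM in the double mutant (0.51, SE 0.07), and CHI rose by 0.75 (SE 0.08). Neither was distinguished from h2a.z (differences -0.04 and 0.10, adjusted p = 0.72 and 0.31). In the whole list of 24 genes 9 fell and 6 rose, against 30.7% and 20.3% of all genes tested. TT8, LDOX, CHS, CHI, EGL3, GL3 and UF3GT were named after their values were seen, and the division of lists by step or role here and elsewhere was made with the values known.

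Immune genes were called lower more often than higher, as were all genes tested (30.7% lower and 20.3% higher). Of 15 immune receptor genes 10 fell and none rose, by 0.99 at most (RPM1), and of 12 salicylic acid and immunity genes 7 fell, 2 of them at least 2-fold, and 2 rose. RPP4 and SNC1, neighbouring resistance genes, fell by 0.66 (SE 0.13) and 0.65 (SE 0.06), with SNC1 at 79.4, 74.7 and 81.4 TPM in Col, 51.1, 50.7 and 46.9 TPM in the double mutant, whereas h2a.z had 22.0, 20.8 and 21.6 TPM. The double mutant was thus between Col and h2a.z, and above h2a.z by 1.17 (adjusted p = 1.0e-09). Such clustered resistance genes share sequence, which makes single values uncertain. In the salicylic acid list, AZI1 (AT4G12470), a lipid transfer protein gene of systemic defence, was at 148, 137 and 138 TPM in Col, 8.69, 10.9 and 12.3 TPM in h3.3kd, 114, 139 and 149.8 TPM in h2a.z and 9.8, 12.3 and 12.5 TPM in the double mutant. PR5, a defence protein gene, was at 28.2, 26.7 and 31.8 TPM in Col and 9.27, 7.4 and 9.69 TPM in the double mutant, although h2a.z was at 67.6, 59.7 and 56.3 TPM. Neither AZI1 nor PR5 was distinguished from h3.3kd (0.12 and -0.04, adjusted p = 0.49 and 0.78).

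Of 48 WRKY transcription factor genes, many of them defence regulators, 20 fell and 3 rose (1 without double mutant replicate 1), against 30.7% and 20.3% of all genes tested. WRKY45 was at -2.11 (SE 0.14) and WRKY29 at -1.19 (SE 0.16). Of 23 DREB and ERF genes 12 fell and 4 rose, the falls above and the rises near the shares over all genes tested. ERF15 was at -1.51 (SE 0.11), and 2 genes of this list rose without double mutant replicate 2. Of 23 GSTU genes, glutathione transferases of detoxification, 15 fell and 1 rose, against 30.7% and 20.3% of all genes tested. With rescaled TPM 11 fell. GSTU8 was at 51.3, 61.8 and 58.7 TPM in Col and 0.902, 1.03 and 0.599 TPM in the double mutant. Of 52 class III peroxidase genes, secreted enzymes of the cell wall, 16 fell and 17 rose, against 30.7% and 20.3% of all genes tested. AT5G64110, beside AT5G64120 in the genome, was at 34.0, 36.3 and 34.0 TPM in Col, 67.2, 77.4 and 92.5 TPM in h2a.z and 5.61, 3.91 and 3.46 TPM in the double mutant. PRXCB, an oxidative burst peroxidase gene, fell from 62.3, 62.7 and 64.9 TPM to 16.3, 17.2 and 16.9 TPM (-1.85, SE 0.12).

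Flowering time genes of the FLC clade fell. FLC and its relatives repress flowering, and all 5 tested of 6 genes of this clade were called lower. FLM was at 19.2, 16.8 and 17.9 TPM in Col and 9.1, 10.7 and 7.92 TPM in the double mutant, and MAF2 at 13.9, 12.5 and 11.7 and at 4.82, 6.57 and 5.03 TPM. FLC was at 5.5, 5.62 and 4.98 TPM in Col and 0.601, 0.607 and 0.446 TPM in the double mutant. SOC1, a floral activator repressed by FLC, rose from 5.27, 4.16 and 4.36 TPM to 9.22, 8.64 and 8.21 TPM (0.80, SE 0.10), above both single mutants (adjusted p = 0.018 and 0.027). SVP, a repressor that acts with FLC, rose too, from 39.5, 38.8 and 36.9 TPM to 48.8, 46.9 and 46.7 TPM (0.30, SE 0.06), as did SPL3, while FD and GI fell by 0.53 and 0.32. Over the list of 11 genes 7 fell and 3 rose; SOC1, FLM, SVP, SPL3 and FD were named after their values were seen. Of 14 circadian clock genes 5 fell and 2 rose, or 1 without Col replicate 1 or 2 or double mutant replicate 2, with ELF3, an evening complex gene, at -0.81 (SE 0.12), while LUX, of the same complex, rose by 0.50 (SE 0.11). These counts are near the shares over all genes tested, 30.7% lower and 20.3% higher. Without double mutant replicate 2, 7 clock genes fell.

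Stomatal genes were low. Of 16 leaf and guard cell markers 10 fell and 4 rose, with a median of -0.50. Of 8 genes of the stomatal lineage and guard cells, SPCH, MUTE, FAMA, TMM, EPF1, EPF2, KAT1 and MYB60, all 8 fell, by 0.57 to 1.44 on the log2 scale. SPCH (AT5G53210), the transcription factor that starts the lineage, was at 11.2, 11.7 and 11.5 TPM in Col, 6.11, 5.06 and 6.32 TPM in h3.3kd, 9.2, 8.84 and 8.24 TPM in h2a.z and 4.91, 2.84 and 3.26 TPM in the double mutant. FAMA, which acts at the last step, was at 24.5, 19.3 and 19.6 TPM in Col and 11.9, 11.7 and 10.5 TPM in the double mutant. KAT1, a potassium channel gene of mature guard cells, was at 18, 16.8 and 14.6 TPM in Col and 9.77, 8.14 and 9.43 TPM in the double mutant. The groups are separate in SPCH, FAMA and KAT1, and 8 of 8 also fell without double mutant replicate 2. Of the 4 mesophyll genes in that list 3 rose and none fell, unlike the nuclear photosystem and antenna genes below, most of whose calls were lower. CAB3, an antenna gene, was at 4759, 5188 and 5338 TPM in Col and 7365, 7376 and 8675 TPM in the double mutant (0.61, SE 0.08). FAMA, TMM, KAT1, MYB60 and CAB3 were chosen after their values were seen. Of 14 root markers 5 rose and none fell, against 20.3% higher and 30.7% lower of all genes tested. The rises were led by PRP3, a root hair gene (0.66, SE 0.13), and SCR, an endodermis regulator (0.56, SE 0.06). Without Col replicate 1 the number that rose was 3, and without double mutant replicate 1 it was 3 with 2 lower.

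Seed storage transcripts were high in the double mutant and varied between libraries. Of 7 tested storage protein genes 6 rose and none fell, and without double mutant replicate 2 the count was again 6. CRU1 (AT5G44120), a cruciferin gene, was at 6.91, 5.16 and 3.87 TPM in Col, 41.4, 26.0 and 29.5 TPM in h3.3kd, 4.01, 3.75 and 125 TPM in h2a.z and 30.9, 94.6 and 73.4 TPM in the double mutant. SESA1, an albumin gene, was at 0.989, 3.01 and 0.649 TPM in Col and 6.75, 11.42 and 22.9 TPM in the double mutant. The double mutant was above Col in each library but spread over more than 2-fold, and a single h2a.z library was as high for CRU1. CRU1 and PAP85 were highest in replicate 2, the library with the high plastid share, whose part in their levels was not tested. The SESA5 call did not survive leaving out Col replicate 2 (3.03, adjusted p = 0.062). PAP85, a cupin family gene, rose from 2.55, 0.44 and 0.74 TPM to 9.06, 24.4 and 11.2 TPM. ABI3, a regulator of seed maturation, and EM6, a late embryogenesis gene, went the other way, by -1.75 (SE 0.15) and -1.70 (SE 0.27). Over the 14 tested seed markers 8 rose and 3 fell, and their summed level was 95.5 to 125 TPM in Col, 168 to 231 TPM in h3.3kd, 34.2 to 419 TPM in h2a.z and 186 to 432 TPM in the double mutant. ABI3, EM6 and SESA1 were named after their values were seen.

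DNA replication genes were lower in the double mutant, least so in its replicate 1. Of 24 cell cycle genes 10 fell and none rose, against 30.7% and 20.3% of all genes tested. The number that fell was 18 without double mutant replicate 1 and 8 without its replicate 2, the latter near the share over all genes. All 6 MCM genes, which encode the replicative helicase, fell, or 5 of 6 without double mutant replicate 2, where MCM7 lost its call (adjusted p = 0.067), as it did without Col replicate 1 (0.052). MCM2 was at 15, 14.6 and 13.2 TPM in Col and 11.39, 6.49 and 6.64 TPM in the double mutant, so replicate 1 lay between Col and the other double mutant libraries. TSO2, for the small subunit of ribonucleotide reductase, was at 86.2, 99.5 and 97.0 TPM in Col and 57.8, 40.5 and 49.5 TPM in the double mutant (-0.93, SE 0.13). Of 9 mitotic cyclin and CDKB genes 1 fell, and none without double mutant replicate 2. MCM7 was chosen after its values were seen.

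Genes of cytosolic ribosomal proteins rose slightly: 36 of 76 were higher and 11 lower, with a median of 0.19, and with rescaled TPM 40 were higher and 6 lower. Without double mutant replicate 2, 29 were higher and 13 lower. P40 (AT1G72370), of the small subunit, was at 436, 403 and 402 TPM in Col and 753, 727 and 712 TPM in the double mutant (0.82, SE 0.05). Genes often used as references rose as well, 7 of 14, with 1 lower, or none with rescaled TPM or without Col replicate 2. EF1ALPHA, a translation elongation factor gene, went from 1293, 1270 and 1262 TPM to 2019, 1992 and 1987 TPM (0.65, SE 0.04), and UBQ10, a polyubiquitin gene, rose by 0.43 (SE 0.05).

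Nuclear photosystem, antenna and Rubisco genes fell more often than they rose, 25 against 8 of 48, where 30.7% and 20.3% of all genes tested did. With rescaled TPM it was 16 against 7, and without double mutant replicate 2, 21 against 9. Their summed level did not fall, with overlapping ranges of 181700 to 198800 TPM in Col and 189000 to 218100 TPM in the double mutant. PSAG, of photosystem I, was at 163, 164 and 154 TPM in Col and 67.2, 60.1 and 70.9 TPM in the double mutant, not distinguished from h2a.z (difference -0.04, adjusted p = 0.73). Of 18 chlorophyll synthesis genes 7 fell and 3 rose, near the 30.7% and 20.3% of all genes tested, and 5 rose with rescaled TPM or without double mutant replicate 2. DVR, a divinyl reductase gene near the end of the pathway, was at 119, 105 and 112 TPM in Col and 33.6, 17.1 and 27.3 TPM in the double mutant (-2.12, SE 0.16), below both single mutants. GSA1, an early enzyme, rose by 0.47 (SE 0.05). Of 13 plastid transcription genes 8 fell and none rose, or 1 with rescaled TPM, with SIG5, a sigma factor gene, at -0.88 (SE 0.10).

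A higher plastid share in the double mutant rests almost wholly on replicate 2, while a number of single plastid genes were higher without it. Their share of TPM was 0.193%, 0.206% and 0.19% in Col, 0.186%, 0.42% and 0.227% in the double mutant, 0.155%, 0.146% and 0.152% in h3.3kd and 0.181%, 0.166% and 0.169% in h2a.z. Replicate 1 of the double mutant lies below every Col library, and replicate 2 is above all others. The mean share was 0.196% ± 0.00826 in Col and 0.278% ± 0.125 in the double mutant (SD, n = 3), a difference of 0.0816 percentage points (exact permutation test, two-sided p = 0.4, where 3 against 3 cannot go below 0.1). Without replicate 2 the difference was 0.0105 percentage points, and the double mutant share was 1.05 times that of Col.

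Gene by gene, 36 of 73 tested plastid genes were called higher and 2 lower, with a median of 0.74. Replicate 2 was the highest of the 6 libraries in 68 of the 73. Without it 25 were called higher, all among the 36, and 7 lower, and the median was 0.36. Without double mutant replicate 1 none was called lower, and without Col replicate 1 or 2 or double mutant replicate 3 there was 1. At least 2-fold, 26 rose with it and 14 without it. ATCG01070 was at 6.17, 8.51 and 5.07 TPM in Col and 21.1, 73.6 and 32.1 TPM in the double mutant (2.35, SE 0.36), and ATCG00510 at 9.58, 19.3 and 13.6 TPM and at 47.6, 129 and 59.7 TPM. In both genes replicates 1 and 3 were also above every Col library. The most abundant plastid genes did not rise: ATCG01020 was at 417, 418 and 386 TPM in Col and 366, 442 and 339 TPM in the double mutant (-0.10, adjusted p = 0.52), and ATCG00220 was lower by 0.55 (adjusted p = 0.011), a call lost without double mutant replicate 1 (adjusted p = 0.057). Mitochondrial genes showed 9 of 17 higher and none lower, or 7 higher without replicate 2, and made up 0.00939% ± 0.00119 of TPM in Col and 0.0161% ± 0.00546 in the double mutant (SD, n = 3, exact permutation test, two-sided p = 0.1, the smallest this design allows). Without replicate 2 of the double mutant the mitochondrial share was 0.013%, which is 1.39 times that of Col in place of 1.72 times. The part of plastid RNA in the other results of replicate 2 was not tested beyond the values without it, and with organelle genes left out the nuclear table gave 3804 higher and 5775 lower calls.

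**Figure D5:**
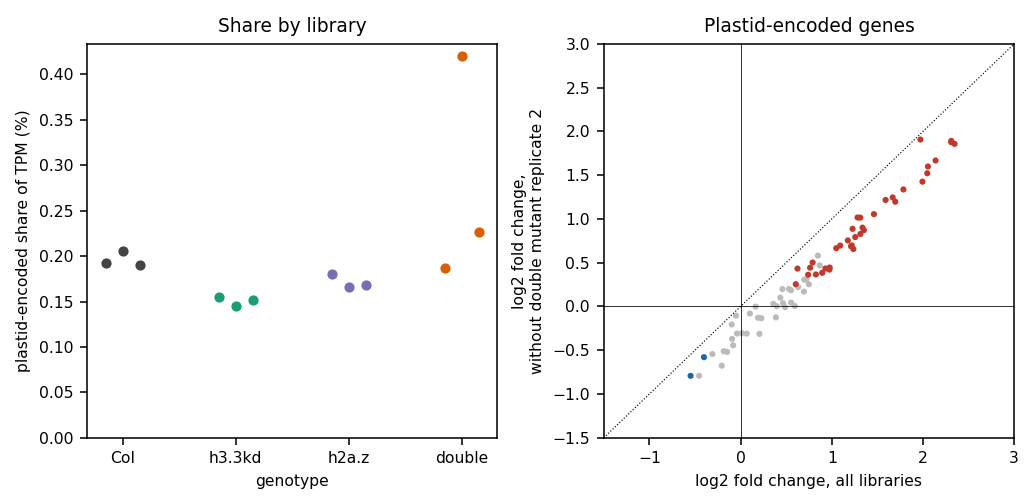
Left, share of TPM from plastid-encoded genes in each library by genotype, with double mutant replicate 2 at 0.42%. Right, log2 fold change of the 73 tested plastid genes with all libraries (horizontal axis) and without double mutant replicate 2 (vertical axis), coloured by call (red higher, blue lower, grey not called); the dotted line marks equal values, and all 73 points lie below it.

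Some changes came in runs of neighbouring genes, a pattern looked for after the data were seen and given without a test. In the gene order of the reference, 12 runs of 3 to 4 consecutive tested genes changed at least 2-fold in one direction, 10 lower and 2 higher, with 41 genes in all. Within the thalianol cluster, a set of adjacent triterpene synthesis genes of root metabolism, THAS1, the thalianol synthase gene, was at 15, 15.5 and 11.9 TPM in Col, 11.5, 10.8 and 10.6 TPM in h3.3kd, 14.1, 15.4 and 13.5 TPM in h2a.z and 5.22, 3.93 and 5.8 TPM in the double mutant. Its neighbours CYP708A2 and CYP705A5, which encode the next enzymes, fell by 1.48 (SE 0.16) and 1.09 (SE 0.12), and the adjacent AT5G48020 by 1.17 (SE 0.10). For these 4 genes the double mutant was below both single mutants.

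AZI1 lies in a run with EARLI1, AT4G12510 and AT4G12520, lipid transfer protein genes that fell by 1.36 to 1.86. The glycine-rich protein genes GRP3S, GRP9, AT2G05510 and GRP-3 fell by 1.23 to 2.28, with GRP3S at 193, 187 and 179.8 TPM in Col and 37.5, 55.9 and 46.0 TPM in the double mutant. AT5MAT and PMAT2, which encode malonyl transferases of phenolic glucosides, and AT3G29630 between them fell by 1.01 to 2.28, and the receptor kinase genes CRK10, CRK11 and CRK12 by 1.01 to 1.44. These neighbours are duplicated copies in part, so shared reads could link their values. Among the higher runs were SESA1, SESA2 and SESA3, and AT5G66960, AT5G66970 and AT5G66980. AT5G66980, listed at 0 in the 3 Col libraries, was at 4.56, 5.16 and 4.6 TPM in the double mutant, whereas h2a.z had 9.53, 5.99 and 9.05 TPM.

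Groups of genes sharing an annotated product were read in the same way, 179 groups with at least 10 tested genes. Those named here were picked from the 179 with their values known. Over all genes tested 30.7% were lower, 4.38% at least 2-fold lower and 20.3% higher. Lipid transfer and 2S albumin proteins had 28 of 46 lower, 14 of them at least 2-fold, and 5 higher, with a median of -0.60. Nodulin MtN21-like transporters had 17 of 34 lower and 3 higher, 9 of the falls at least 2-fold. TIR-NBS-LRR disease resistance proteins had 21 of 39 lower and 1 higher. In the other direction, histone superfamily proteins had 20 of 30 higher and 5 lower, with a median of 0.49, and TCP-1/cpn60 chaperonins, which assist protein folding, had 8 of 13 higher and 1 lower.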

How the data were processed

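RNA of 12 libraries (3 per genotype) was sequenced. The authors deposited 1 table of TPM values, whose columns each sum to 1000000. Tools listed by the submitters' processing notes, without their roles, are DESeq2 1.26.0, HTSeq 0.11.2, HISAT2 2.1.10 and fastp 0.20.1, with the TAIR10 build. The labels do not say how TPM were computed, whether strand was used or whether libraries stem from separate cultures, so p-values cover only the spread between these libraries, which may be technical.

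A linear model of 4 genotypes was fitted to log2(TPM + 1) of genes with a mean of at least 1 TPM with limma 3.58.1 (R 4.3.3; trended variance, 8 residual degrees of freedom, two-sided, Benjamini-Hochberg over 18851 genes). Folds of low genes are understated on this scale. The fit was tested on simulated data with independent noise and few changed genes. That setting differs from these data, so the test says nothing on scaling or on the calls made here. Depth was estimated from low values, since 92.9% of those in 3141 genes were whole multiples of a step (tolerance 0.01 steps); this covers counting error only. Symbols and gene order come from RefSeq TAIR10.1, which matched the 23739 nuclear identifiers, and no coordinates or sequences are printed.

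The members and the 52 lists were chosen with earlier results of these data known. Class III peroxidase and ribosomal protein genes were taken by annotated product, and 10 wrongly matched genes were left out. By rule 230 genes could be named: H3.3 and H2A.Z genes, PIF4, YUC8, IAA19, HSP70, FLC, the 15 largest rises and falls, up to 4 called members per list, and the most abundant plastid and 2-fold changed genes; 70 more were chosen after their values were seen. Alternatives were other pseudocounts, filters, scalings, libraries and a replicate block.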

Additional observations from a re-analysis of the deposited data

How the results depend on the processing

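Of 300 named genes, 288 kept their direction and their side of the threshold under each of the 15 alternatives that gave them a value, and none of the others reversed. Genes without a value were those below the filter of 5 TPM, which left 237, and those outside the nuclear table, which left 289. The 12 that did not were HTB1, CMT3, MBD9, PTAC3, CASP2, HSP70, MCM7, VRN2, YUC8, SESA5, ATCG00220 and ATMG00650; the cause was not tested. The number of genes at least 2-fold higher, 376, was 567 with a pseudocount of 0.1 and 136 with a pseudocount of 5, and 230 among genes with a mean of at least 5 TPM. The number at least 2-fold lower, 826, was 1227 and 343 with these pseudocounts; a larger pseudocount shrinks folds of low genes by construction.

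Leaving out in turn each Col and double mutant library and replicate 1 of h2a.z, the shallowest, higher calls ranged from 3214 to 3987, lower calls from 4760 to 6291, 2-fold rises from 340 to 407 and 2-fold falls from 772 to 918, and the plastid share difference from 0.0105 to 0.127 percentage points. Equal replicate numbers did not deviate together between Col and the double mutant (correlations of -0.02, -0.08 and 0.04). This cannot show whether they shared a batch or preparation, which the labels do not say. With the replicate block there were 3726 higher, 5617 lower, 377 and 826 calls. Near-identical copies, unknown strand and 1 read in shallow genes limit single low values.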
